A study of Bos taurus with 38 samples.

Results

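The values below describe 7 genes of rumen papillae that were selected on the data themselves: their expression was higher in feed-restricted bulls than in bulls fed ad libitum at the end of restriction, and lower again in restricted bulls after re-alimentation. They were taken from 12802 genes with values in at least one period, of which 12543 were listed in both. The 7 genes were ENSBTAG00000019711, ENSBTAG00000007480, ENSBTAG00000025848, ENSBTAG00000040277, ENSBTAG00000039682, ENSBTAG00000012007 and ENSBTAG00000014501. No table used here pairs these Ensembl identifiers with gene symbols or positions, so the function of each gene is not given.

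The animals were purebred male Holstein Friesian bulls, and every bull was offered a diet of 70% concentrate and 30% grass silage, so that the treatments differed in the amount of feed. Restricted bulls (RES) received a limited allowance for 125 days (Period 1) and were then re-alimented over a second stage of 55 days (Period 2). Per the paper, a transition first raised their intake step by step, so free access did not fill all 55 days. Control bulls (ADLIB) had free access in both periods. Per the paper, bulls were blocked by live weight and age, and diets were assigned within blocks. The labels do not say whether the bulls' replicate numbers follow these blocks. Papillae came from 9 ADLIB and 9 RES bulls at the end of Period 1 and from 10 ADLIB and 10 RES bulls at the end of Period 2. Each of the 38 bulls was sampled once at slaughter, so changes between periods compare different animals. The labels give rumen epithelium as the tissue, although their extraction text mentions muscle. The tissue could not be checked against marker genes, because none of the identifiers (0) could be matched to a symbol.

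Rumen papillae are finger-like folds of a stratified squamous epithelium that absorb the volatile fatty acids made by the ruminal microbes, and they also form a barrier against the rumen contents. Their size and cell turnover are known to follow feed intake. Cattle that regain free access to feed after a period of restriction can grow faster than cattle that were never restricted, which is called compensatory growth. A sample of papillae is a mixture of epithelial, connective tissue, vascular and immune cells, so fewer cells of a type and less RNA per cell cannot be told apart.

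Single-end mRNA sequencing gave between 5948453 and 11957654 reads assigned to listed genes per bull. Expression is given as CPM, read counts scaled to a fixed library size, on a scale normalised over all 38 libraries. CPM is not divided by transcript length, so levels are compared between groups for a gene and not between genes. One read was worth between 0.0744 and 0.213 CPM in the deposited values. The libraries carry a digit from 1 to 4 in their identifiers, whose meaning is not given in the sources used here. The libraries with digit 1 had the fewest reads, from 5948453 to 7349256, and they made up 4 of the 9 RES bulls but 1 of the 9 ADLIB bulls at the end of Period 1.

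ENSBTAG00000019711 separated RES bulls at the end of Period 1 from every other bull in measured CPM, though by a margin within counting error. Its lowest, median and highest values were 3.05, 4.83 and 6.50 CPM in RES and 0.667, 2.11 and 2.40 CPM in ADLIB at the end of Period 1. At the end of Period 2 they were 1.33, 1.71 and 2.73 CPM in RES and 0.655, 1.70 and 3.02 CPM in ADLIB. The RES range at the end of Period 1 lay above the other 3 ranges, which overlapped each other. The mean was 4.97 ± 1.15 CPM (SD, n = 9) in RES against 1.78 ± 0.712 CPM (SD, n = 9) in ADLIB at the end of Period 1, a ratio of 2.79. After re-alimentation the RES mean was 1.82 ± 0.386 CPM (SD, n = 10), and the ratio of the RES mean at the end of Period 1 to that at the end of Period 2 was 2.73. These values rest on 4 to 86 reads per bull.

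ENSBTAG00000007480 was also separate between the periods in RES. Its lowest, median and highest values in RES were 99.7, 105 and 172 CPM at the end of Period 1 and 50.4, 61.3 and 74.2 CPM at the end of Period 2. In ADLIB they were 53.2, 68.9 and 109 CPM at the end of Period 1 and 46.4, 64.6 and 91.3 CPM at the end of Period 2. The ADLIB and RES ranges overlapped at the end of Period 1, where 2 ADLIB bulls reached the lowest RES value, and no bull of Period 2 did. The RES mean was 1.52 times the ADLIB mean at the end of Period 1 and 1.83 times the RES mean at the end of Period 2. The highest RES value of Period 1 came from 1 bull, and the next was 122 CPM.

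ENSBTAG00000025848 had a similar order of groups. Its lowest, median and highest values in RES were 27.3, 32.1 and 42.4 CPM at the end of Period 1 and 15.3, 17.0 and 22.4 CPM at the end of Period 2. In ADLIB they were 13.8, 19.7 and 32.1 CPM at the end of Period 1 and 8.55, 20.7 and 34.4 CPM at the end of Period 2. The RES ranges of the periods did not overlap, while 2 ADLIB bulls of Period 1 and 1 of Period 2 reached the RES values of Period 1. The ratios of means were 1.58 for RES over ADLIB at the end of Period 1 and 1.86 for RES at the end of Period 1 over Period 2.

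ENSBTAG00000040277 differed from the other genes in where the difference lay. Its lowest, median and highest values in RES were 4.99, 6.07 and 7.97 CPM at the end of Period 1 and 1.96, 3.06 and 3.88 CPM at the end of Period 2. In ADLIB they were 3.37, 5.46 and 6.58 CPM at the end of Period 1 and 2.91, 4.28 and 6.62 CPM at the end of Period 2. The RES ranges of the periods did not overlap, but 5 of 9 ADLIB bulls of Period 1 were within the RES range of that time. The ratio of means was 1.27 for RES over ADLIB at the end of Period 1, the smallest of the 7, and 2.03 for RES at the end of Period 1 over Period 2.

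The last 3 genes overlapped between groups in both comparisons that chose them. ENSBTAG00000039682 had lowest, median and highest values of 46.1, 57.8 and 67.0 CPM in RES and 30.0, 46.1 and 50.9 CPM in ADLIB at the end of Period 1. At the end of Period 2 it had 35.9, 42.3 and 47.2 CPM in RES and 37.6, 45.8 and 51.9 CPM in ADLIB. Of the RES bulls of Period 1, 8 of 9 lay above every ADLIB bull of that period. The ratios of means were 1.29 for RES over ADLIB at the end of Period 1 and 1.38 for RES at the end of Period 1 over Period 2.

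ENSBTAG00000012007 had lowest, median and highest values of 11.9, 17.2 and 25.0 CPM in RES and 6.56, 9.00 and 15.0 CPM in ADLIB at the end of Period 1. At the end of Period 2 it had 8.54, 10.7 and 15.2 CPM in RES and 9.62, 11.1 and 14.2 CPM in ADLIB. The 3 other groups overlapped the lower end of the RES range of Period 1, with 2 or 3 bulls in each. The ratios of means were 1.71 for RES over ADLIB at the end of Period 1 and 1.58 for RES at the end of Period 1 over Period 2.

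ENSBTAG00000014501 had lowest, median and highest values of 24.1, 35.4 and 44.4 CPM in RES and 18.2, 24.6 and 27.1 CPM in ADLIB at the end of Period 1. At the end of Period 2 it had 18.0, 20.5 and 30.0 CPM in RES and 17.5, 24.2 and 37.3 CPM in ADLIB. This gene overlapped most, since 15 of the 29 bulls outside the RES group of Period 1 reached its lowest value. The ratios of means were 1.45 for RES over ADLIB at the end of Period 1 and 1.51 for RES at the end of Period 1 over Period 2.

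**Figure D1:**
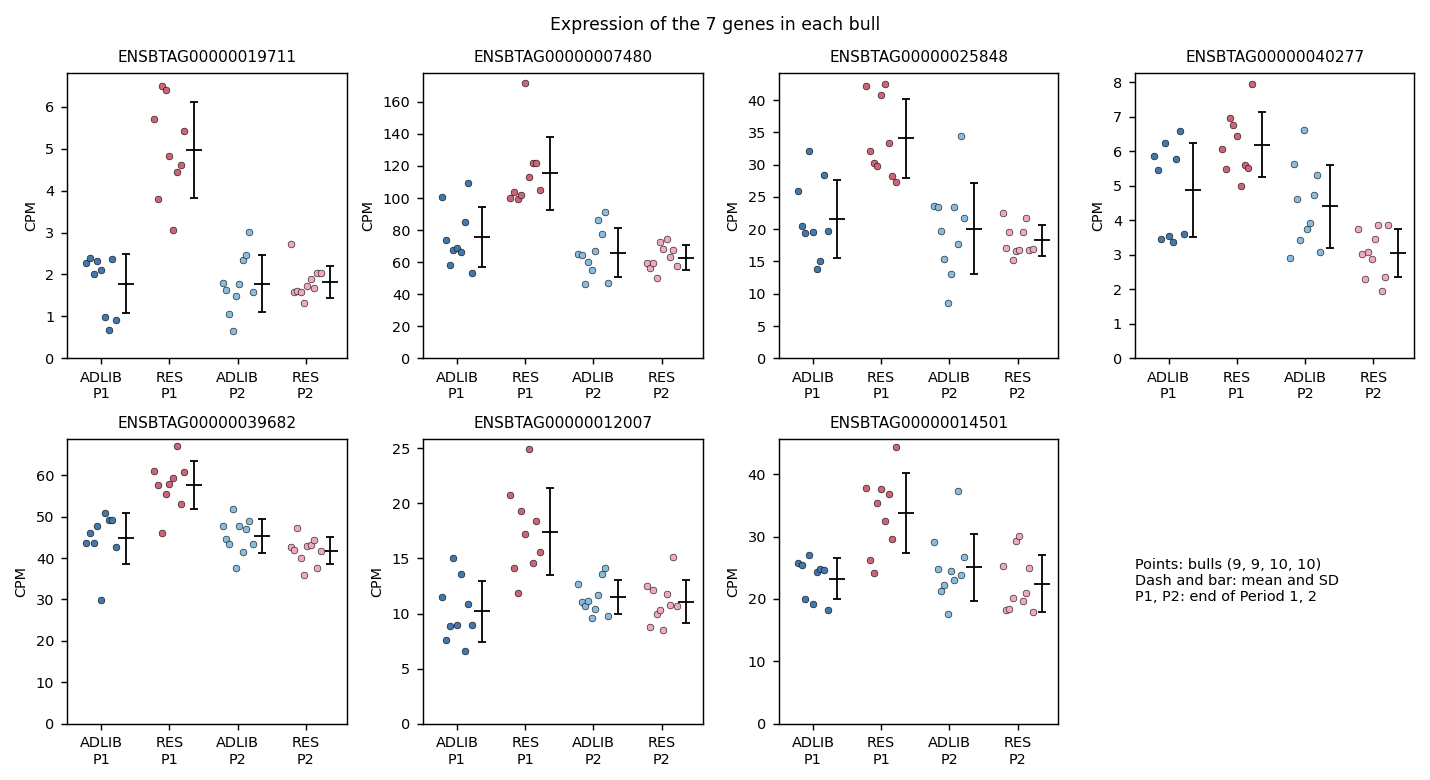
CPM of each of the 7 genes (vertical axes, starting at 0) in each bull, by diet and period (P1 and P2, the ends of Period 1 and Period 2), with the mean and SD of each group beside the points. RES at the end of Period 1 has the highest mean for all 7 genes, and for ENSBTAG00000019711 its lowest value (3.05 CPM) is above the highest of the 29 other bulls (3.02 CPM).

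Because the genes were chosen by these values, the differences at the end of Period 1 and within RES are a description. On the log2(CPM + 1) scale, which understates the change of low genes, the RES minus ADLIB differences after restriction ran from 0.32 for ENSBTAG00000040277 to 1.13 for ENSBTAG00000019711, with a median of 0.61. The differences between Period 2 and Period 1 within RES ran from -1.08 for ENSBTAG00000019711 to -0.45 for ENSBTAG00000039682, with a median of -0.84. Over all genes tested, the median difference was -0.000933 between diets at the end of Period 1 and 0.00634 between periods within RES.

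The number of these genes past an adjusted p of 0.05 (limma, Benjamini-Hochberg over all genes) is likewise a description. The way the genes were chosen favoured a high number. At the end of Period 1, 1 of the 7 (ENSBTAG00000019711) was higher in RES, and it was the only such gene of 12627 tested (0.00792%). It was also the only gene of 12539 (0.00798%) whose RES range lay above the ADLIB range. With DESeq2 on the recovered reads 6 of the 7 and 60 of all genes passed, and with the edgeR exact test 5 and 40. The edgeR quasi-likelihood test on the same reads passed only 1 of the 7 and 1 of all genes. Without ADLIB bull 4 of Period 1, 3 of the 7 passed and the count over all genes was 13. Leaving out any other single bull gave 1 of the 7. Within RES, all 7 were among 101 genes of 12531 (0.806%) that were lower in Period 2. The ranges of 4 of the 7 did not overlap there, against 11 of 12531 genes (0.0878%). With the library digit as a covariate, 5 of the 7 passed within RES, all but ENSBTAG00000012007 and ENSBTAG00000014501. The count of all genes in either direction was then 103 in place of 204.

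The comparison of diets at the end of Period 2 asks whether the genes still differed after 55 days of re-alimentation. None of the 7 (0) passed the adjusted threshold, and neither did any of 12581 genes (0.0%; limma). At an unadjusted p under 0.05, 1 of the 7 passed, against 606 of 12581 genes (4.82%). The edgeR quasi-likelihood, edgeR exact and DESeq2 tests on recovered reads also gave 0 of the 7 and 0 over all genes. The RES bulls of Period 2 took part in choosing the genes, so low values in them were favoured, and only the ADLIB bulls of Period 2 were not used.

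ENSBTAG00000040277 was the gene under the unadjusted threshold. RES bulls averaged 3.06 ± 0.688 CPM (SD, n = 10). ADLIB bulls averaged 4.41 ± 1.20 CPM (SD, n = 10), which gives a ratio of 0.694. The log2 difference was -0.40 (SE 0.13, 95% interval -0.67 to -0.13), with an unadjusted p of 0.00576 and an adjusted p of 0.919 by limma. The ranges overlapped. The direction was the same within each of the 4 library digits, as it was for ENSBTAG00000039682. The choice of the genes favoured low RES values here, and digit 4 held 1 RES bull, so this is a description.

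For the other 6 genes the 95% interval of the difference at the end of Period 2 included 0. ENSBTAG00000019711 differed by 0.05 (-0.24 to 0.33) and ENSBTAG00000007480 by -0.04 (-0.27 to 0.19). ENSBTAG00000025848 differed by -0.06 (-0.39 to 0.27) and ENSBTAG00000012007 by -0.06 (-0.26 to 0.15). ENSBTAG00000039682 differed by -0.12 (-0.25 to 0.02) and ENSBTAG00000014501 by -0.15 (-0.39 to 0.10). In 6 of the 7 genes the RES value was the lower, although that of ENSBTAG00000007480 was the higher (0.0113) once the library digit was a covariate. The median over the 7 was -0.06, against 0.000443 over all genes, and the choice of the genes favoured low RES values here. These intervals do not show that the diets had the same level, since differences of up to 0.39 in size lie within them.

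The comparison of periods within ADLIB gives the change in bulls that were never restricted. The ADLIB bulls of Period 1 took part in choosing the genes, so low values in them, and with these an upward change, were favoured. None of the 7 (0) passed the adjusted threshold, nor did any of 12513 genes (0.0%; limma), and 0 of the 7 passed at an unadjusted p under 0.05, against 717 of 12513 (5.73%). The edgeR quasi-likelihood, edgeR exact and DESeq2 tests also gave 0 of the 7. Over all genes, DESeq2 passed 4 and the edgeR exact test 3. The estimates were above 0 for 4 of the 7 genes and below 0 for 3, and those of ENSBTAG00000019711 and ENSBTAG00000039682 changed sign when single bulls were left out.

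The change was 0.18 (95% interval -0.08 to 0.44) for ENSBTAG00000012007 and -0.20 (-0.49 to 0.09) for ENSBTAG00000007480, which were the highest and lowest of the 7. For ENSBTAG00000019711 the ADLIB mean was 1.78 CPM at both times, with a difference of 0.01 (-0.36 to 0.37). Set beside these, the changes within RES for the same 3 genes were -0.60, -0.85 and -1.08. The difference between the RES and ADLIB changes was not tested, because the RES change had chosen the genes.

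**Figure D2:**
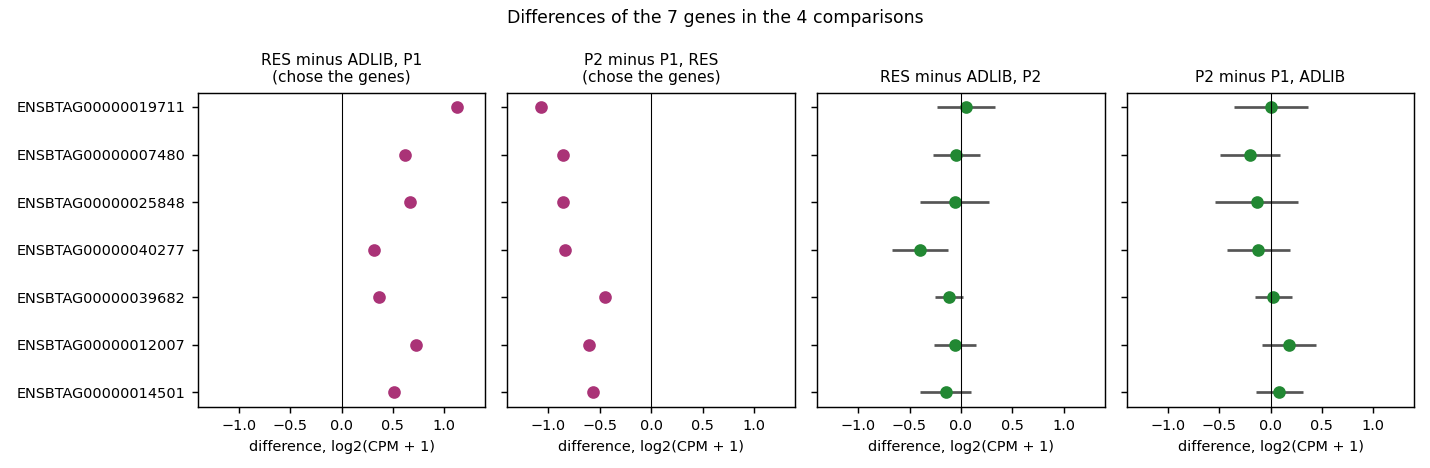
Differences on the log2(CPM + 1) scale (horizontal axes) of the 7 genes in the 4 comparisons, with 95% intervals for the right-hand pair and none for the left-hand pair, which chose the genes. The left-hand values run from 0.32 to 1.13 and from -1.08 to -0.45, while the right-hand intervals include 0 except for ENSBTAG00000040277 between diets in Period 2.

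The order of the 4 group means was therefore led by RES at the end of Period 1 for all 7 genes. RES at the end of Period 2 had the lowest mean for 5 genes, and ADLIB at the end of Period 1 for ENSBTAG00000012007. For ENSBTAG00000019711 the ADLIB means were both 1.78 CPM, and which was lower turned with the scale used. Neither of the tests among the other 3 groups, between diets in Period 2 and between periods within ADLIB, passed the adjusted threshold for any of the 7 genes, and RES of Period 2 was not tested against ADLIB of Period 1. Between RES at the end of Period 2 and ADLIB at the end of Period 1, the difference of mean log2 values ran from -0.52 for ENSBTAG00000040277 to 0.13 for ENSBTAG00000012007. The ADLIB bulls of Period 2 had no part in the choice, but the genes were selected for high values in RES at the end of Period 1, so a positive difference was favoured here too. RES at the end of Period 1 was higher than them by 0.34 for ENSBTAG00000039682 up to 1.12 for ENSBTAG00000019711.

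The spread between bulls was smaller in RES than in ADLIB for most of the genes. The SD of log2 values was lower in RES than in ADLIB for 6 of the 7 genes at the end of Period 1 and for 6 of the 7 at the end of Period 2. For ENSBTAG00000025848 the ratio of the RES SD to the ADLIB SD at the end of Period 2 was 0.333, and for ENSBTAG00000012007 it was 1.30. A small spread in RES also favours a gene in the comparison within RES that chose it, so no test is given. The share of all genes with a smaller spread in RES was not computed, so this may not be particular to the 7.

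Part of the spread was counting error. For ENSBTAG00000019711 in RES at the end of Period 2, the coefficient of variation between bulls was 21.2% against 24.6% expected from counting reads alone. For ENSBTAG00000040277 in RES at the end of Period 1 it was 15.0% against 13.3%. By contrast, ENSBTAG00000007480 in RES at the end of Period 1 varied by 19.8% against 3.15%. The coefficient of variation was above the counting value in 27 of the 28 combinations of gene and group.

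**Figure D3:**
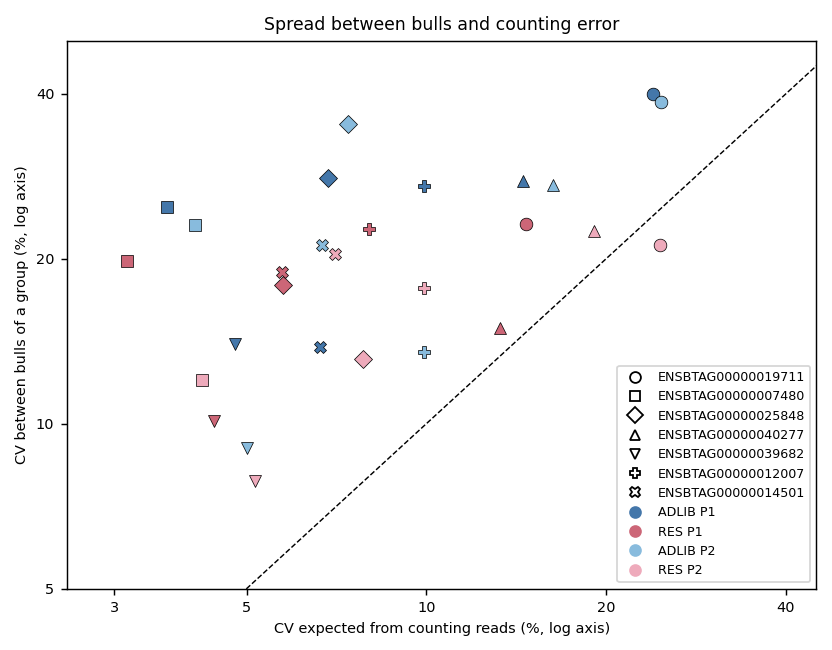
Coefficient of variation between bulls of a group (vertical) against that expected from counting reads (horizontal), both in % on log axes, for each gene (symbol) and group (colour), with a dashed line where they are equal. ENSBTAG00000019711 in RES at the end of Period 2 is the point under the line (21.2% against 24.6%).

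To ask whether the 7 genes varied together between bulls, deviations of log2(CPM + 1) from the group means were correlated over the 38 bulls. Of 21 pairs, 19 had a positive Pearson r, and r ran from -0.185 to 0.445 with a median of 0.238. The median r of each of the 7 genes with 12542 other genes lay between -0.0057 and 0.0089. The pairs share genes and are not independent, so the count of positive pairs was not tested. None (0) of the pairs passed an adjusted p of 0.05 in a permutation test of 100000 resamples within groups, for r or for Spearman's rho. The pair with the largest r was ENSBTAG00000025848 and ENSBTAG00000012007, with r of 0.445 (permutation p = 0.00321, adjusted p = 0.0674) and rho of 0.447 (permutation p = 0.00837, adjusted p = 0.0879). Without the 2 bulls farthest from the median of the first gene, r was 0.403. Within the library digits 1 to 4 it was 0.408, 0.218, 0.704 and 0.435.

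Some bulls lay to the same side of their group mean for most of the genes. In ADLIB at the end of Period 1, bull 8 was above its group mean for all 7 genes and bull 9 for none (0), and no other bull of the 38 did either. In ADLIB at the end of Period 2, bulls 1, 8 and 9 were above for 6 genes and bulls 4 and 5 for 1. Bulls above for 6 genes also occurred in each of the other groups. How many such bulls to expect was not computed. The correlation with the log2 number of reads, over the same 38 bulls, was 0.404 for ENSBTAG00000019711 and 0.228 for ENSBTAG00000012007, and its part in the results was not tested.

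**Figure D4:**
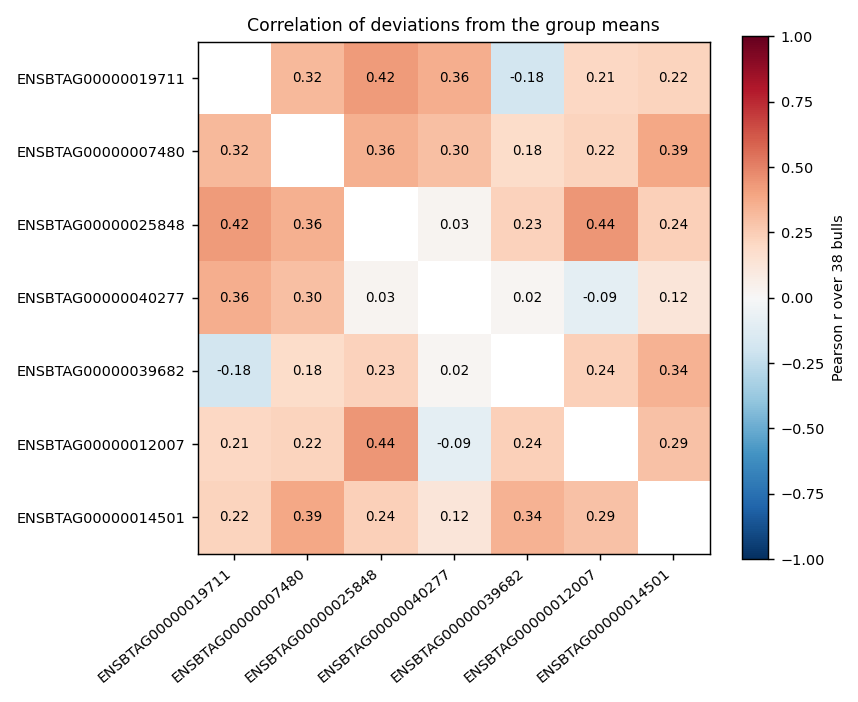
Pearson r between the 7 genes (both axes) for deviations from the group means over 38 bulls, with the value in each cell and colour from -1 (blue) to 1 (red). The values run from -0.185 to 0.445, and 19 of the 21 pairs are positive. The pairs share genes and are not independent, and this count was not tested.

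For each gene, the gene whose deviations over the 38 bulls were most like its own was found among the genes outside the 7, as a description. When all 12542 other genes were ranked by r instead, the best rank of 1 of the 7 for another was 73. The highest r was 0.749, between ENSBTAG00000007480 and ENSBTAG00000003719. ENSBTAG00000003719 averaged 26.2 CPM in RES and 22.7 CPM in ADLIB at the end of Period 1. At the end of Period 2 it averaged 20.5 CPM in RES and 19.9 CPM in ADLIB, so the mean was lower in both diets. The nearest gene of ENSBTAG00000012007 was ENSBTAG00000017833 (r = 0.702) and that of ENSBTAG00000025848 was ENSBTAG00000000377 (r = 0.693). ENSBTAG00000000377 averaged 2.90 CPM in RES and 2.23 CPM in ADLIB at the end of Period 1. At the end of Period 2 it averaged 1.51 CPM in RES and 1.71 CPM in ADLIB, again lower in both diets.

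The remaining nearest genes were ENSBTAG00000046248 for ENSBTAG00000040277 (r = 0.646), ENSBTAG00000014064 for ENSBTAG00000014501 (r = 0.641), ENSBTAG00000016981 for ENSBTAG00000019711 (r = 0.595) and ENSBTAG00000009020 for ENSBTAG00000039682 (r = 0.536). The last fell to 0.389 without 2 bulls. ENSBTAG00000014064 averaged 106 CPM in RES and 80.6 CPM in ADLIB at the end of Period 1, and 76.0 CPM in RES at the end of Period 2. ENSBTAG00000016981 averaged 1.87, 1.77 and 1.79 CPM in these 3 groups. The other 3 nearest genes had a lower mean in RES than in ADLIB at the end of Period 1. ENSBTAG00000046248 averaged 103 against 109 CPM, ENSBTAG00000017833 averaged 29.8 against 30.5 CPM, and ENSBTAG00000009020 averaged 22.8 against 23.0 CPM.

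Library digits were unevenly spread over the groups, so the differences were also taken within each digit. Within RES, Period 2 was lower than Period 1 in all 4 digits for all 7 genes. In digit 3 this difference was only -0.03 for ENSBTAG00000012007 and -0.01 for ENSBTAG00000014501. At the end of Period 1, RES was higher in all 4 digits for 5 genes, by as little as 0.01 (ENSBTAG00000039682 in digit 3). For ENSBTAG00000012007 and ENSBTAG00000014501 it was higher in 3 of 4 digits, with a lowest difference of -0.13 for both. Both comparisons chose the genes, so a shared direction over the digits was favoured. A digit also held as few as 1 bull of a group, so these values carry no test.

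**Figure D5:**
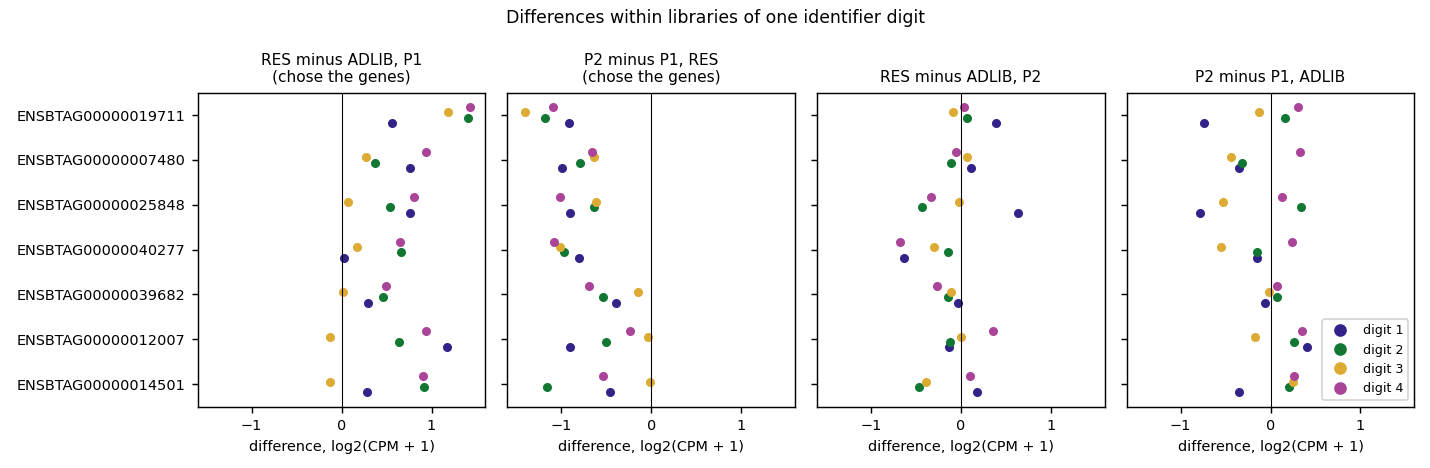
Differences on the log2(CPM + 1) scale (horizontal axes) of the 7 genes in the 4 comparisons, each point from the libraries of 1 identifier digit (colour). Within RES all points are below 0, and at the end of Period 1 the points of ENSBTAG00000012007 and ENSBTAG00000014501 for digit 3 are below 0 (-0.13 each). Both of these comparisons chose the genes, which favoured a shared direction.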

How the data were processed

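Total RNA from rumen papillae was sequenced as single-end mRNA libraries. Per the labels and the study's methods, the authors aligned reads to the UMD3.1 bovine genome, counted reads per Ensembl gene with HTSeq, left out low genes and scaled with edgeR. The submitters' processing notes also name CASAVA 1.4, Bowtie and SAMtools. The deposited values are a signal per gene and bull, in CPM (read counts brought to a fixed library size) scaled within each period by the authors.

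All values were whole multiples of the value of 1 read (100% within a tolerance of 0.02 reads), so read numbers were recovered. For levels, the reads of 12543 genes were scaled over all 38 libraries with TMM. Each comparison was fitted on its 2 groups with limma 3.58.1 (R 4.3.3) on log2(CPM + 1), with TMM, filterByExpr of edgeR 4.0.16, a variance trend and Benjamini-Hochberg adjustment over all genes tested (threshold 0.05). Count tests (edgeR and DESeq2 1.42.0) on the recovered reads, other normalisation, filters, pseudocounts, covariates and the omission of each bull were alternatives. Correlations used Python 3.11.15, scipy 1.17.1 and 100000 permutations within groups. The fits and permutations were tested on simulated data.

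The genes named are the 7 genes and, for each, the gene with the highest correlation of deviations over the 38 bulls. The 7 genes, lists and tests were chosen with earlier results of these data known. Pathway and marker lists could not be used, because 0 identifiers matched a symbol. Depth was 5948453 to 11957654 reads per bull, and counting errors cover counting only. No 2 libraries of a group were alike within sampling noise.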

Additional observations from a re-analysis of the deposited data

Results flagged for a closer look

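Among 28 combinations of gene and group examined for a bull far from the others, 2 stood out, where chance gives about 1 in 20. In RES at the end of Period 1, bull 5 had 172 CPM of ENSBTAG00000007480 and the next bull had 122 CPM, a gap of 0.628 of the group's range. Without that bull the log2 difference of RES from ADLIB after restriction was 0.54, against 0.61 with it.

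In ADLIB at the end of Period 1, bull 5 had 30.0 CPM of ENSBTAG00000039682 and the next lowest bull had 42.6 CPM, a gap of 0.664 of the range. Without that bull the difference of RES from ADLIB after restriction was 0.29, against 0.36 with it, and the change within ADLIB was -0.04 in place of 0.03.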

How the results depend on the processing

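The number of the 7 genes past the adjusted threshold was 0 under every alternative run, both between diets at the end of Period 2 and between periods within ADLIB. Between diets at the end of Period 1 and within RES, the median difference of the 7 kept its sign under the alternatives run. It ran from 0.54 to 0.68 between diets at the end of Period 1 and from -0.87 to -0.78 within RES when 1 bull was left out. For ENSBTAG00000019711, the difference at the end of Period 1 was 1.52 with a pseudocount of 0.1 CPM and 1.49 with edgeR's quasi-likelihood test, and within RES it was -1.39 and -1.45.

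Small differences changed sign. For ENSBTAG00000019711 between diets in Period 2, DESeq2 gave -0.00205 and the edgeR exact test -0.00193, and with the library digit as a covariate the change within ADLIB was -0.00563. For ENSBTAG00000007480 the digit covariate gave 0.0113 in Period 2. When 1 bull was left out, the Period 2 difference ran from -0.0297 to 0.118 for ENSBTAG00000019711, from -0.0959 to 0.0186 for ENSBTAG00000007480 and from -0.178 to 0.0387 for ENSBTAG00000025848. The change within ADLIB ran from -0.0797 to 0.0816 for ENSBTAG00000019711 and from -0.0446 to 0.0531 for ENSBTAG00000039682. The cause was not tested.

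Over all genes, 1 gene passed at the end of Period 1, as with edgeR quasi-likelihood, against 60 with DESeq2 and 40 with the edgeR exact test. With all groups in 1 fit or with the digit covariate, 2 passed. Of the 7, which this comparison helped to choose, 6 passed there with DESeq2, 5 with the edgeR exact test and 1 with edgeR quasi-likelihood. Within RES 204 genes passed, against 456 with DESeq2, 313 with the edgeR exact test, 197 with edgeR quasi-likelihood and 103 with the digit covariate. Within ADLIB 0 passed, against 4 with DESeq2 and 3 with the edgeR exact test. When 1 bull was left out, these counts ran from 1 to 13 at the end of Period 1, from 136 to 283 within RES and from 0 to 1 within ADLIB.

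Whether the shared replicate numbers pair bulls is not known. Correlations of deviations averaged 0.12 for the same number and -0.01 for others at the end of Period 1. Within RES they averaged 0.03 and -0.003. With the replicate block, 2 genes passed at the end of Period 1 and 119 within RES. Of the 7 genes, 2 were among the former and 6 among the latter, since ENSBTAG00000012007 passed at the end of Period 1 and not within RES. Both comparisons chose the genes, so these counts are a description. Each bull correlated best with its own number in 3 of 9 pairs at the end of Period 1 and in 0 of 9 within RES. Among pairs of the 7 genes, 1 passed when the RES bulls of Period 2 were left out (ENSBTAG00000039682 and ENSBTAG00000014501, r = 0.567, permutation p adjusted 0.0170), and 0 under the other alternatives. Low read numbers limit ENSBTAG00000019711 most, with as few as 4 reads in a bull.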
